A study of Mus musculus with 4 samples.

Results

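Transcripts of 9 secreted cytokines outside the IL-1 and TNF families were measured in neutrophils sorted from injured mouse hearts. The genes *Il6*, *Il23a*, *Il12a*, *Ebi3*, *Il10*, *Osm*, *Lif*, *Csf1* and *Csf3* were taken by gene name, and all 9 were found among the 25655 genes of the 4 libraries. The cells were Ly6G+ neutrophils, also gated as CD45.2+CD11b+, from WT and *Cd300a-/-* male mice of the C57BL/6 background, 8 to 12 weeks old. Hearts were taken on day 3 after myocardial ischemia and reperfusion (MI/R) in every group, so there was no library from an uninjured heart. Each genotype gave a SiglecF hi and a SiglecF lo library, which the labels name SiglecF+ and SiglecF-, and each library pooled the cells of 8 mice. With 1 library per group there was no replicate check and no P value, and every difference below describes these 4 libraries only.

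Most cytokines are made on demand, and their mRNAs are short-lived. IL-6, oncostatin M (*Osm*) and LIF share the receptor chain encoded by *Il6st*, whereas IL-12, IL-23, IL-27 and IL-35 are each built from a pair of chains, so that 1 chain alone does not give the cytokine. IL-10 restrains inflammatory cytokine production in myeloid cells, *Csf1* encodes the growth factor of macrophages, and *Csf3* encodes G-CSF, the growth factor of neutrophils.

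The knocked-out gene followed the labels. *Cd300a* had 6640 counts in WT SiglecF hi and 3024 in WT SiglecF lo neutrophils, against 27 and 28 in the *Cd300a-/-* libraries. *Siglecf* reached 354 (WT) and 405 TPM (*Cd300a-/-*) in SiglecF hi cells, against 11.3 and 15.3 TPM in SiglecF lo cells. *Ly6g*, the sorting marker of all 4 libraries, was low in the WT (11.1 TPM) and *Cd300a-/-* (41.9 TPM) libraries of SiglecF hi cells and high in those of SiglecF lo cells (330.4 and 889 TPM). All 13 genes of a neutrophil list, *Cd300a* and *Siglecf* included, were above 3 counts in every library. The list summed to 28403 TPM in WT SiglecF hi, 156041 in WT SiglecF lo, 33501 in *Cd300a-/-* SiglecF hi and 205807 in *Cd300a-/-* SiglecF lo neutrophils. Of its genes *S100a9* was the most abundant.

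The depth, as the total count over genes, was 19278243 in WT SiglecF hi, 9631901 in WT SiglecF lo, 17632989 in *Cd300a-/-* SiglecF hi and 10988619 in *Cd300a-/-* SiglecF lo neutrophils, so the SiglecF lo libraries were the shallower ones. A gene at or under 3 counts in a library was taken to be at the counting floor. None of the 9 cytokine genes was at that floor in any library, and the nearest was *Il12a* with 4 counts in WT SiglecF lo neutrophils. For comparison, 10156 of the 25655 genes were at the floor in all 4 libraries. TPM was used to compare levels between genes, since it allows for gene length. The limit used here was a mean TPM of the 4 libraries over 10, which 6 of the 9 genes and 6523 genes in all passed. *Il12a*, *Lif* and *Csf3* did not pass, and *Il10* passed through the SiglecF hi libraries alone, so the counts of genes over the limit given below are not support for a difference between subsets. Intervals are 95% counting intervals. Such intervals hold counting error and nothing else: the reads carry no molecular identifiers, so copies of 1 molecule are counted apart, and differences between the pooled mice are not in them.

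By mean TPM the order was *Csf1*, *Osm*, *Ebi3*, *Il23a*, *Il6*, *Il10*, *Il12a*, *Csf3* and *Lif*. Together the 9 genes made up 0.104% of all TPM in WT SiglecF hi, 0.0666% in WT SiglecF lo, 0.114% in *Cd300a-/-* SiglecF hi and 0.0732% in *Cd300a-/-* SiglecF lo neutrophils. *Csf1* supplied 60.7%, 48.1%, 60.8% and 48.7% of that sum, in the same order of libraries. The spread between libraries was unequal: the highest level was 1.22 times the lowest for *Csf3*, 1.30 times for *Osm*, 1.55 times for *Ebi3*, 2.16 times for *Csf1*, 3.80 times for *Il6*, 3.88 times for *Lif*, 6.10 times for *Il23a*, 6.25 times for *Il10* and 18.1 times for *Il12a*.

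**Figure D1:**
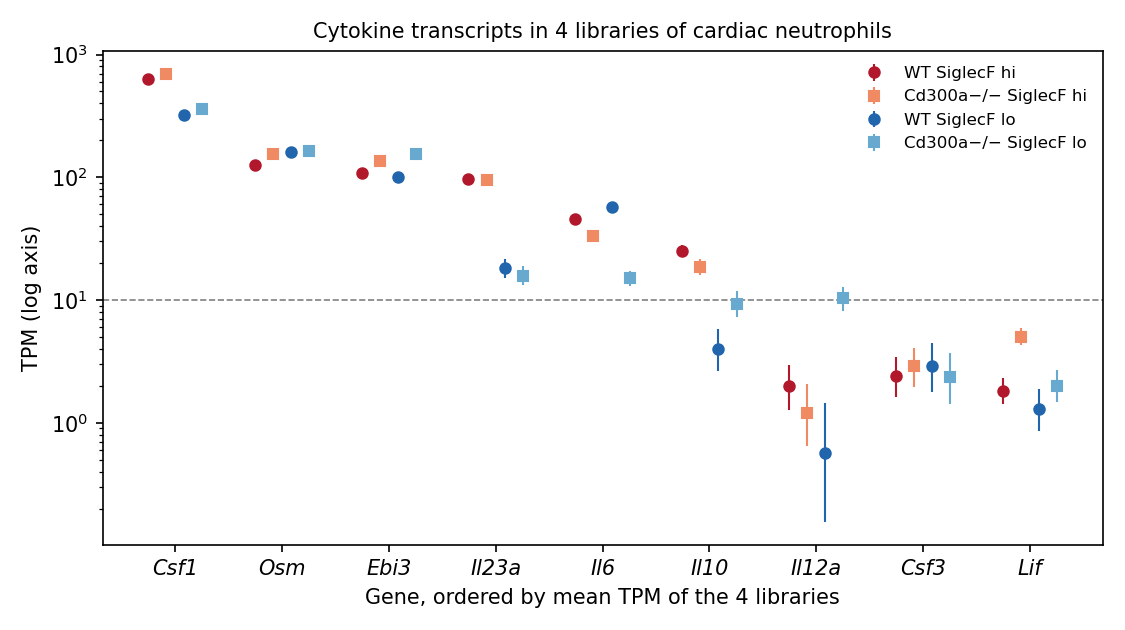
TPM (log axis) of the 9 cytokine genes, ordered by mean TPM, in 1 library each of WT (circles) and *Cd300a-/-* (squares) SiglecF hi (red) and SiglecF lo (blue) neutrophils; bars are 95% counting intervals and the dashed line is 10 TPM. *Il23a* and *Il10* lie higher in both SiglecF hi libraries, *Il6* is lowest in *Cd300a-/-* SiglecF lo neutrophils at 15.0 TPM, and *Il12a* is highest there at 10.3 TPM.

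*Il6* encodes IL-6, an inducer of the acute phase response. The gene (ENSMUSG00000025746) lies on chromosome 5 from 30218112 to 30224979 in the coordinates of the files, which are GRCm39 per the submitters' processing notes. *Il6* had 972 counts (45.6 TPM) in WT SiglecF hi, 709 (56.8 TPM) in WT SiglecF lo, 634 (33.2 TPM) in *Cd300a-/-* SiglecF hi and 206 (15.0 TPM) in *Cd300a-/-* SiglecF lo neutrophils. WT SiglecF lo neutrophils were the highest and *Cd300a-/-* SiglecF lo neutrophils the lowest, so the SiglecF lo libraries held both ends of the range. Differences are log2((TPM + 1) ratios), a scale that shrinks the change of genes at low levels, and a ratio beyond 0.5, up or down, was called past the threshold. The ratio of *Cd300a-/-* to WT was -1.86 in SiglecF lo (95% counting interval -2.07 to -1.64) and -0.45 in SiglecF hi neutrophils (-0.59 to -0.30). In the SiglecF lo comparison 57 of the 6523 genes had a lower ratio than *Il6*. Fewer cells of a type and less RNA per cell cannot be told apart in such bulk samples.

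Endothelial genes moved with *Il6* in SiglecF lo neutrophils. The 8 listed endothelial genes, all above the floor in all libraries, summed to 348 TPM in WT SiglecF hi, 563 in WT SiglecF lo, 461 in *Cd300a-/-* SiglecF hi and 174 in *Cd300a-/-* SiglecF lo neutrophils, with *Fabp4* the most abundant. Of the 6 over the limit, 5 were lower by over 0.5 in the *Cd300a-/-* library of that subset, where 19.9% of all genes were, and their median ratio was -1.45, where the median of all 6523 genes was -0.02. In that comparison *Pecam1* was at 57.5 TPM (WT) and 15.6 TPM (*Cd300a-/-*), and *Cdh5*, the endothelial cadherin, at 25.1 and 9.91 TPM. Cardiomyocyte genes also were lower there, with sums of 51.6 TPM (WT) and 26.6 TPM (*Cd300a-/-*), against 58.6 and 94.1 TPM in the SiglecF hi libraries. Of the 4 cardiomyocyte genes over the limit, 2 were lower by over 0.5 in *Cd300a-/-* SiglecF lo neutrophils, against the same 19.9%, and the most abundant there was *Myl2*. *Nppa* was at 0 in the 3 libraries other than WT SiglecF hi. Between genotypes in SiglecF hi neutrophils the endothelial genes did not move with *Il6*, with a median ratio of 0.40 where *Il6* was at -0.45. There 1 of the 6 was higher by over 0.5 and 0 were lower, against 3.31% and 3.46% of all genes. Neither list's part in the *Il6* values was tested.

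*Osm* and *Lif* are close relatives of *Il6* in function and neighbours on chromosome 11, with 16531 bp between them. *Osm* (ENSMUSG00000058755, at 4186420 to 4191026) reached 2530 counts (127 TPM) in WT SiglecF hi, 1879 (161 TPM) in WT SiglecF lo, 2777 (156 TPM) in *Cd300a-/-* SiglecF hi and 2120 (165 TPM) in *Cd300a-/-* SiglecF lo neutrophils. WT SiglecF hi neutrophils were the lowest, and the other 3 libraries lay close together. The ratio of *Cd300a-/-* to WT was 0.29 (0.22 to 0.37) for SiglecF hi cells and 0.03 (-0.06 to 0.12) for SiglecF lo cells, both under the threshold. *Lif* (ENSMUSG00000034394, 4207557 to 4222514) was far lower, with 65 counts (1.83 TPM) in WT SiglecF hi, 27 (1.30 TPM) in WT SiglecF lo, 160 (5.03 TPM) in *Cd300a-/-* SiglecF hi and 46 (2.00 TPM) in *Cd300a-/-* SiglecF lo neutrophils. *Cd300a-/-* SiglecF hi neutrophils stood above the other 3 libraries, whose TPM intervals overlapped. The linear TPM ratio of *Lif* in *Cd300a-/-* to WT was 2.75 in SiglecF hi neutrophils (2.05 to 3.73, exact counting interval) and 1.54 in SiglecF lo neutrophils (0.940 to 2.58). Among the 4949 genes with a mean TPM over 1 and at most 10, 236 (4.77%) lay as far from 0 as *Lif* in the SiglecF hi comparison. *Osm* exceeded *Lif* by 69.4 times in WT SiglecF hi, 124 times in WT SiglecF lo, 30.9 times in *Cd300a-/-* SiglecF hi and 82.2 times in *Cd300a-/-* SiglecF lo neutrophils, per TPM.

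*Il23a* encodes the chain that is particular to IL-23, a cytokine that sustains IL-17-producing lymphocytes. It lies on the minus strand of chromosome 10 (ENSMUSG00000025383, 128132008 to 128134621). *Il23a* had 1153 counts (96.6 TPM) in WT SiglecF hi, 127 (18.2 TPM) in WT SiglecF lo, 1010 (94.5 TPM) in *Cd300a-/-* SiglecF hi and 122 (15.8 TPM) in *Cd300a-/-* SiglecF lo neutrophils. Both SiglecF hi libraries were high and both SiglecF lo libraries low, and within a subset the genotypes did not differ beyond counting error, with ratios of *Cd300a-/-* to WT of -0.03 (-0.15 to 0.09) and -0.19 (-0.53 to 0.15). *Il12b*, which encodes the chain that IL-23 and IL-12 share, was nearly absent, with 2 counts in WT SiglecF hi, 11 in WT SiglecF lo, 12 in *Cd300a-/-* SiglecF hi and 0 in *Cd300a-/-* SiglecF lo neutrophils. Its highest level was 1.09 TPM, so in all 4 libraries *Il23a* was at a level well above its partner chain.

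*Il12a* encodes the chain that pairs with *Il12b* in IL-12 and with *Ebi3* in IL-35, and lies on chromosome 3 (ENSMUSG00000027776, 68597977 to 68605880). It had 24 counts (2.00 TPM) in WT SiglecF hi, 4 (0.568 TPM) in WT SiglecF lo, 13 (1.21 TPM) in *Cd300a-/-* SiglecF hi and 80 (10.3 TPM) in *Cd300a-/-* SiglecF lo neutrophils. The last library stood apart from the other 3, with an interval of 8.17 to 12.8 TPM that none of theirs reached. In the SiglecF lo subset *Il12a* was 18.1-fold higher in *Cd300a-/-* mice than in WT mice (exact counting interval 6.81 to 68.2), a wide interval because of the 4 counts in WT. Of the 4949 genes with a mean TPM over 1 and at most 10, 65 (1.31%) lay as far from 0 on the log2 scale. In SiglecF hi neutrophils the ratio of *Cd300a-/-* to WT was 0.605 (0.283 to 1.24), a difference that was not detectable at this depth.

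*Ebi3*, the chain shared by IL-27 and IL-35, lies on chromosome 17 (ENSMUSG00000003206, 56259640 to 56264022). It had 1096 counts (108 TPM) in WT SiglecF hi, 597 (101 TPM) in WT SiglecF lo, 1232 (136 TPM) in *Cd300a-/-* SiglecF hi and 1021 (156 TPM) in *Cd300a-/-* SiglecF lo neutrophils. Both *Cd300a-/-* libraries were higher than both WT libraries. The ratio of *Cd300a-/-* to WT was 0.63 (0.48 to 0.77) in SiglecF lo and 0.33 (0.21 to 0.44) in SiglecF hi neutrophils, of which the first was past the threshold. *Il27*, the other chain of IL-27, was under the limit but had the same order of genotypes, with 31 counts (3.46 TPM) for WT and 89 (11.1 TPM) for *Cd300a-/-* in the SiglecF hi subset, and 7 (1.33 TPM) and 31 (5.36 TPM) in the SiglecF lo subset. Its linear TPM ratio of *Cd300a-/-* to WT was 3.21 (2.11 to 5.00) for SiglecF hi cells and 4.01 (1.73 to 10.8) for SiglecF lo cells. *Ebi3* was at a higher level than either possible partner in every library, by 12.2 to 75.5 times over *Il27* and 15.2 to 177 times over *Il12a*, per TPM.

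*Il10* lies on chromosome 1 (ENSMUSG00000016529, 130947582 to 130952711). It had 288 counts (25.1 TPM) in WT SiglecF hi, 27 (4.01 TPM) in WT SiglecF lo, 192 (18.7 TPM) in *Cd300a-/-* SiglecF hi and 69 (9.29 TPM) in *Cd300a-/-* SiglecF lo neutrophils. The SiglecF hi libraries were the higher ones in both genotypes, and no TPM interval overlapped that of another library. In SiglecF lo neutrophils the ratio of *Cd300a-/-* to WT was 1.04 (0.51 to 1.57), and in SiglecF hi neutrophils it was -0.41 (-0.66 to -0.15). Both SiglecF lo values were under 10 TPM, so in that comparison *Il10* was at the level of the low genes. Of the genes with a mean TPM over 1 and at most 10, 56.8% were past 0.5 there.

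*Csf1* was the most abundant of the 9 genes in each library and lies on the minus strand of chromosome 3 (ENSMUSG00000014599, 107648364 to 107667785). It had 26942 counts (632 TPM) in WT SiglecF hi, 8003 (320.5 TPM) in WT SiglecF lo, 26441 (693 TPM) in *Cd300a-/-* SiglecF hi and 9819 (356 TPM) in *Cd300a-/-* SiglecF lo neutrophils. Both SiglecF hi libraries were high, and between genotypes the ratios were small, at 0.13 (0.11 to 0.16) for SiglecF hi cells and 0.15 (0.11 to 0.20) for SiglecF lo cells. *Il34*, the other ligand of the CSF1 receptor, had 52 counts in WT SiglecF hi, 9 in WT SiglecF lo, 6 in *Cd300a-/-* SiglecF hi and 4 in *Cd300a-/-* SiglecF lo neutrophils, so its TPM was far under that of *Csf1* throughout. *Csf3* (ENSMUSG00000038067, 98592089 to 98594455 on chromosome 11) reached 30 counts (2.42 TPM) in WT SiglecF hi, 21 (2.89 TPM) in WT SiglecF lo, 32 (2.88 TPM) in *Cd300a-/-* SiglecF hi and 19 (2.37 TPM) in *Cd300a-/-* SiglecF lo neutrophils. It was low in all 4 libraries, their TPM intervals overlapped, and a difference was not detectable at this depth in any of the 4 comparisons. *Csf2*, which encodes GM-CSF, had 8 counts in WT SiglecF hi and 12 in WT SiglecF lo neutrophils and 0 in both *Cd300a-/-* libraries.

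**Figure D2:**
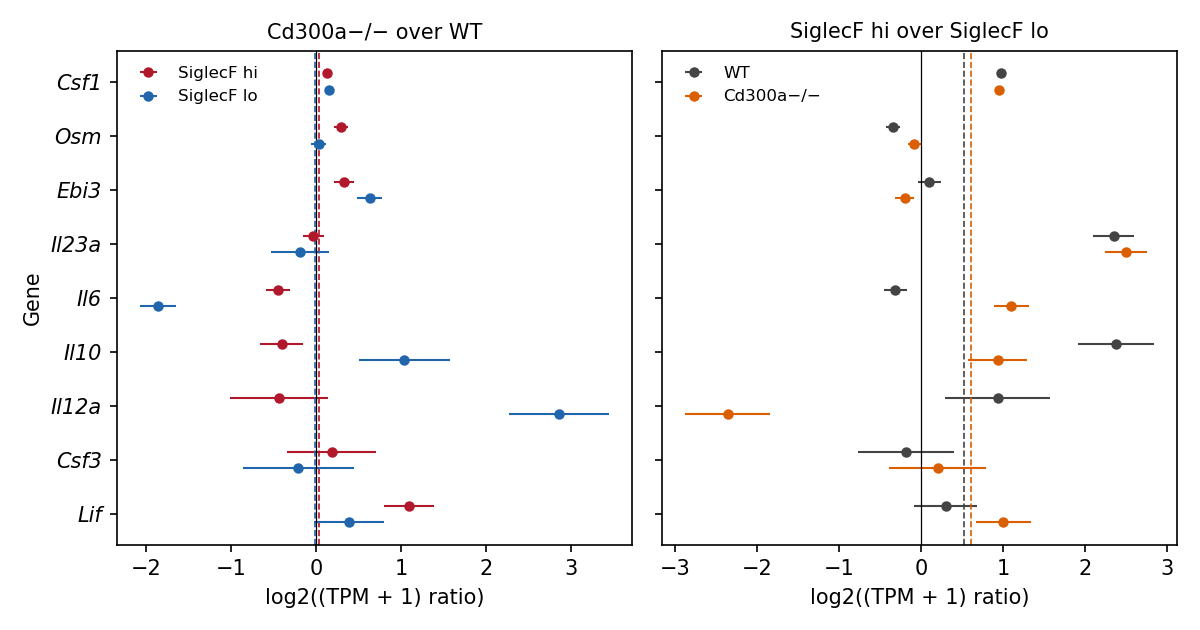
Log2((TPM + 1) ratio) of each cytokine gene between genotypes (left, in SiglecF hi and SiglecF lo neutrophils) and between subsets (right, in WT and *Cd300a-/-* mice), with 95% counting intervals from 1 library per group; dashed lines are the medians of the 6523 genes over the limit. Between genotypes *Il6* lies at -1.86 and *Il10* at 1.04 in SiglecF lo neutrophils, and between subsets *Il23a* lies at 2.35 in WT and 2.51 in *Cd300a-/-* neutrophils, right of the medians of 0.53 and 0.61.

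Between genotypes in SiglecF lo neutrophils, 2 of the 6 genes over the limit, *Ebi3* and *Il10*, were higher in *Cd300a-/-* by over 0.5, where 16.4% of all 6523 genes were. *Il10* is counted here although it was under 10 TPM in both SiglecF lo libraries. Lower by over 0.5 was 1 of the 6, *Il6*, against 19.9% of all genes. Among the low genes 1 of 3, *Il12a*, was past 0.5, against 56.8% of the 4949 genes with a mean TPM over 1 and at most 10. *Lif*, at 0.39 in this comparison, also passed 0.5 with TMM scaling (0.52). In SiglecF hi neutrophils 0 of the 6 genes were higher by over 0.5, against 3.31% of all genes, and 0 were lower, against 3.46%. Of the 3 low genes, *Lif* alone was past 0.5 there, against 25.7% of the low genes. Counts over 6 and 3 genes do not set these cytokines apart from the rest. The ratio in SiglecF lo minus that in SiglecF hi neutrophils was -1.41 for *Il6* (-1.67 to -1.16), 1.44 for *Il10* (0.86 to 2.03) and 3.29 for *Il12a* (2.47 to 4.11). These 3 genes thus differed most between subsets in their genotype ratio, whereas *Csf1* (0.02, -0.03 to 0.07) and *Il23a* (-0.16, -0.52 to 0.20) did not differ beyond counting error.

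Between subsets the whole distribution was displaced: of the 6523 ratios of SiglecF hi to SiglecF lo neutrophils, the median was 0.53 for WT and 0.61 for *Cd300a-/-* mice. The ratios are therefore given also relative to this median. The 4 comparisons share libraries, so the subset ratios restate the levels above and are not further support for them. *Il23a* was higher in SiglecF hi neutrophils by 2.35 in WT (2.10 to 2.60, 1.82 relative to the median) and by 2.51 in *Cd300a-/-* mice (2.25 to 2.76, 1.89 relative to the median). *Il10* was higher by 2.38 in WT (1.91 to 2.84, 1.85 relative to the median) and by 0.93 in *Cd300a-/-* mice (0.57 to 1.30, 0.32 relative to the median). These were the genes with the largest subset ratios among the 6 in WT mice. *Csf1* was higher by 0.98 in WT (0.94 to 1.01) and 0.96 in *Cd300a-/-* mice (0.92 to 0.99), which was 0.45 and 0.34 relative to the median. *Il6* was at -0.31 in WT (-0.45 to -0.17, -0.84 relative to the median) and at 1.10 in *Cd300a-/-* mice (0.89 to 1.32, 0.49 relative to the median). *Il6* was thus lower in SiglecF hi neutrophils of WT mice and higher in those of *Cd300a-/-* mice on both scales. The median of the 6 endothelial genes over the limit turned the same way, from -0.61 in WT to 0.81 in *Cd300a-/-* mice (-1.13 and 0.20 relative to all genes). In SiglecF hi neutrophils of WT mice 5 were lower and 0 higher, against 7.47% and 51.9% of all genes. In *Cd300a-/-* mice 5 were higher and 0 lower, against 56.6% and 7.97%. Relative to the median 6 of these genes were lower in WT (20.9% of all genes) and 2 higher in *Cd300a-/-* mice (21.2%). Their part in the *Il6* ratios was not tested.

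*Osm* was at -0.34 in WT (-0.87 relative to the median) and -0.08 in *Cd300a-/-* mice (-0.69). *Ebi3* was at 0.10 in WT (-0.04 to 0.25) and -0.20 in *Cd300a-/-* mice, and relative to the median at -0.42 and -0.81, so that its direction in WT mice depended on the scale. For the low genes the linear ratio of SiglecF hi to SiglecF lo neutrophils was 3.51 for *Il12a* in WT (1.21 to 13.9), whereas in *Cd300a-/-* mice *Il12a* was 8.53-fold lower in SiglecF hi neutrophils (4.71 to 16.7). *Lif* had a ratio of 1.41 in WT (0.887 to 2.30) and 2.51 in *Cd300a-/-* mice (1.80 to 3.56), and *Csf3* of 0.836 (0.463 to 1.54) and 1.22 (0.668 to 2.27). The directions of *Lif* in WT and of *Csf3* in *Cd300a-/-* mice turned relative to the median, to -0.23 and -0.41 on the log2 scale, and both had intervals that held no difference. On the log2 scale *Il12a* was at 0.93 in WT and -2.36 in *Cd300a-/-* mice, or 0.41 and -2.97 relative to the median, so that in WT it was then under the threshold. *Lif* in *Cd300a-/-* mice went from 1.01 to 0.39, also under it, and *Csf3* in WT mice from -0.19 to -0.71, past it. With TMM scaling *Il12a* in WT (0.53) and *Lif* in *Cd300a-/-* mice (0.64) stayed past the threshold, and *Csf3* in WT mice was at -0.51.

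In WT mice 3 of the 6 genes over the limit were higher in SiglecF hi neutrophils by over 0.5, against 51.9% of all genes, and 0 were lower, against 7.47%. In *Cd300a-/-* mice 4 of the 6 were higher, against 56.6% of all genes, and 0 were lower, against 7.97%. Past 0.5 in either direction were 1 of the 3 low genes in WT, against 69.6% of low genes, and 2 of the 3 in *Cd300a-/-* mice, against 68.8%. Relative to the median 2 were higher and 2 lower in WT mice, against 19.3% and 20.9% of all genes, and 1 was higher and 2 lower in *Cd300a-/-* mice, against 21.2% and 23.6%. With TMM scaling 2 were higher and 2 lower in each genotype, where 20.1% and 21% of all genes were in WT and 24.2% and 21.9% in *Cd300a-/-* mice. On each scale these counts over 6 genes do not set the cytokines apart from the rest. The median over the 6 genes, 0.54 in WT and 0.95 in *Cd300a-/-* mice, is set beside 0.53 and 0.61 for all genes.

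The sums of macrophage and fibroblast genes were higher in the SiglecF hi library of each genotype. The 12 macrophage and monocyte genes summed to 8810 TPM in WT SiglecF hi, 4275 in WT SiglecF lo, 7663 in *Cd300a-/-* SiglecF hi and 3917 in *Cd300a-/-* SiglecF lo neutrophils. *C1qb* was the most abundant in 3 libraries and *C1qa* in *Cd300a-/-* SiglecF lo neutrophils, and none of the 12 was at 0. Higher in SiglecF hi neutrophils by over 0.5 were 7 of the 12 in WT and 9 in *Cd300a-/-* mice, against 51.9% and 56.6% of all genes, and 2 and 1 were lower, against 7.47% and 7.97%. Relative to the median 7 and 5 were higher, against 19.3% and 21.2% of all genes, and 3 were lower in each, against 20.9% and 23.6%. *Csf1r* is also among the receptors below. The 8 fibroblast genes, with *Dcn* the most abundant and none at 0, summed to 2196, 1026, 1546 and 1047 TPM in the same order of libraries. Of the 7 over the limit, 7 were higher in SiglecF hi neutrophils by over 0.5 in WT and 3 in *Cd300a-/-* mice, and 0 were lower in either. Relative to the median 4 were higher and 0 lower in WT mice, whereas 0 were higher and 2 lower in *Cd300a-/-* mice, against the shares of all genes just given. The median of these 7 was 0.58 above that of all genes in WT mice and lay below it in *Cd300a-/-* mice (-0.24), so in *Cd300a-/-* mice the fibroblast genes did not move beyond the whole distribution. Between genotypes 4 of these 7 were lower by over 0.5 in the *Cd300a-/-* library of the SiglecF hi subset, against 3.46% of all genes, where *Il6* (-0.45) and *Il10* (-0.41) were lower as well. In SiglecF lo neutrophils, where *Il6* was at -1.86 and *Il10* at 1.04, 1 of these 7 was higher and 0 were lower. Of all genes 16.4% were higher and 19.9% lower there. Of the 12 macrophage and monocyte genes 1 was higher and 0 were lower between genotypes in SiglecF hi neutrophils, against 3.31% and 3.46%. In SiglecF lo neutrophils 1 was higher and 1 lower. The part of macrophages and fibroblasts in the *Il6*, *Il23a*, *Il10* and *Csf1* values was not tested. Of the 13 neutrophil genes 8 were lower by over 0.5 in SiglecF hi neutrophils of WT and 10 in those of *Cd300a-/-* mice (7.47% and 7.97% of all genes). In each 1 was higher, *Siglecf*. Between genotypes 6 were higher in *Cd300a-/-* SiglecF lo and 5 in *Cd300a-/-* SiglecF hi neutrophils (16.4% and 3.31% of all genes). In each 1 was lower, *Cd300a*. Their part was not tested either.

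Listed genes of other immune cell types had smaller sums than the macrophage and fibroblast genes. Whether their transcripts came from such cells was not tested. The 7 eosinophil genes summed to 117, 173, 119 and 87.9 TPM in WT SiglecF hi, WT SiglecF lo, *Cd300a-/-* SiglecF hi and *Cd300a-/-* SiglecF lo neutrophils, nearly all of it *Ear2*, and *Epx*, the eosinophil peroxidase, was at 0 in all 4. The 7 dendritic cell genes summed to 177, 91.4, 221 and 92.2 TPM, mostly *Itgax*, but *Cd209a*, which encodes a C-type lectin, had 15 counts (1.15 TPM), 80 (10.5 TPM), 10 (0.859 TPM) and 0 in that order. In SiglecF lo cells *Cd209a* was thus at least 29.4-fold lower for *Cd300a-/-* than for WT against a floor of 3 counts per library, in the comparison where *Il6* was lower and *Il12a* higher. *Flt3* and *Xcr1*, also of this list, were at 0 in WT SiglecF lo neutrophils and had 7 and 8 counts in *Cd300a-/-* SiglecF lo neutrophils. *Zbtb46*, *Ccr7* and *Siglech* had 29, 18 and 13 counts in WT and 36, 29 and 16 in *Cd300a-/-* SiglecF lo neutrophils. *Itgax* was at 77.5 TPM (WT) and 87.2 TPM (*Cd300a-/-*) there. No gene of this list other than *Cd209a* had a lower TPM for *Cd300a-/-* than for WT in SiglecF lo cells. The part of dendritic cells in these values was not tested. T and NK cell genes summed to at most 11.7 TPM and B cell genes to at most 14.4 TPM in a library, and all 6 mast cell genes were at the floor in each. Genes induced by tissue dissociation were abundant throughout, with sums over 12 genes of 7018, 5887, 7321 and 5127 TPM and *Dusp1* on top. In SiglecF lo neutrophils *Hspa1b* was higher (1.21) and *Hspa1a* lower (-0.64) in *Cd300a-/-* than in WT by over 0.5, each 1 of the 12, where 16.4% of all genes were higher and 19.9% lower. In SiglecF hi neutrophils 0 of the 12 were past 0.5 between genotypes, against 3.31% higher and 3.46% lower. Between subsets 5 of the 12 were higher in SiglecF hi neutrophils of WT mice, *Egr1* (0.52), *Fosb* (0.56), *Ier3* (0.62), *Jun* (0.62) and *Hspa1b* (1.30), and 6 in *Cd300a-/-* mice, *Jun* (0.51), *Fos* (0.52), *Atf3* (0.70), *Egr1* (0.74), *Hsp90aa1* (0.81) and *Ier3* (1.18). Of all genes 51.9% and 56.6% were higher. Relative to the median 1 of the 12 was higher (19.3% and 21.2% of all genes) and 2 were lower (20.9% and 23.6%) in each genotype, with *Dusp1* lower in both (-0.61 in WT and -0.52 in *Cd300a-/-* mice). Their part in the cytokine values was not tested.

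Among 14 partner chains and close relatives of the 9 cytokines, 0 passed the limit of 10 TPM, and *Il3*, *Il19*, *Il20*, *Il22* and *Il24* were at the floor in all 4 libraries. *Clcf1*, a ligand of the IL-6 family, was the most steadily counted, with 117, 77, 172 and 67 counts in WT SiglecF hi, WT SiglecF lo, *Cd300a-/-* SiglecF hi and *Cd300a-/-* SiglecF lo neutrophils. Of 14 other cytokines 7 were at the floor in all libraries and 2 passed the limit, *Il15* and *Il16*. *Il15*, which maintains NK and memory T cells, was at 22.2, 43.1, 17.5 and 34.2 TPM in the same order of libraries, and *Il16*, a chemoattractant of CD4 T cells, at 24.98, 44.0, 28.9 and 52.1 TPM. Both were higher in SiglecF lo neutrophils, opposite to *Il23a*, *Il10* and *Csf1*. *Il5*, the growth factor of eosinophils, had 29 and 56 counts in the SiglecF lo libraries of WT and *Cd300a-/-* mice and 0 in both SiglecF hi libraries, which is at least 16.5-fold lower in WT and at least 25.9-fold lower in *Cd300a-/-* SiglecF hi neutrophils against a floor of 3 counts per library.

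Receptors of the 9 cytokines were measured to a different extent. Of 12 receptor genes 6 passed the limit, *Il6ra*, *Il6st*, *Il10ra*, *Il10rb*, *Csf1r* and *Csf3r*. Between genotypes 0 of the 6 were past 0.5 in either subset, against 16.4% of all genes higher and 19.9% lower in SiglecF lo and 3.31% and 3.46% in SiglecF hi neutrophils, except that *Il6ra*, at 0.49 in SiglecF lo cells, passed it with TMM scaling or relative to the median. *Csf3r*, the G-CSF receptor, was the highest, at 1069 TPM in WT SiglecF hi, 1443 in WT SiglecF lo, 1109 in *Cd300a-/-* SiglecF hi and 1750 in *Cd300a-/-* SiglecF lo neutrophils, whereas its ligand *Csf3* stayed under 3 TPM. *Il10ra*, the ligand-binding chain for IL-10, was at 173, 101, 207 and 123 TPM in that order, and *Il6ra* at 43.3, 29.9, 54.6 and 42.5 TPM. Higher in SiglecF hi neutrophils by over 0.5 were 2 of the 6 receptor genes in each genotype, against 51.9% and 56.6% of all genes, and 0 and 1 were lower, against 7.47% and 7.97%. Relative to the median 0 were higher in either (19.3% and 21.2% of all genes), and 1 was lower in WT (20.9%) and 2 in *Cd300a-/-* mice (23.6%). *Il10ra* was higher in SiglecF hi neutrophils, as *Il10* was, by 0.77 in WT and 0.75 in *Cd300a-/-* mice, and by 0.24 and 0.14 relative to the median. *Csf3r* was lower there by over 0.5 in *Cd300a-/-* mice (-0.66), and *Csf1r* higher (0.66, or 0.05 relative to the median). *Il6ra* was higher in SiglecF hi neutrophils of WT mice by 0.52, which relative to the median was -0.01. *Il23r* had 46 counts in WT SiglecF lo, 7 in *Cd300a-/-* SiglecF hi and 0 in the other libraries, and *Il27ra* had 47 counts in WT SiglecF hi, 34 in WT SiglecF lo, 61 in *Cd300a-/-* SiglecF hi and 3 in *Cd300a-/-* SiglecF lo neutrophils. *Osmr*, a receptor chain for oncostatin M, was under the limit, at 7.12 and 5.70 TPM in SiglecF hi cells (WT and *Cd300a-/-*) and 3.79 and 5.88 TPM in SiglecF lo cells, where its ratio of *Cd300a-/-* to WT was 0.52 (0.24 to 0.80). *Il27ra* was 12.5-fold lower in the *Cd300a-/-* library of the SiglecF lo subset (3.93 to 63.6), where its 3 counts are at the floor.

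All 14 listed transcription factors that act on cytokine genes passed the limit. *Cebpb* led them, at 2408 TPM in WT SiglecF hi, 2994 in WT SiglecF lo, 2668 in *Cd300a-/-* SiglecF hi and 3072 in *Cd300a-/-* SiglecF lo neutrophils. Between genotypes in SiglecF lo neutrophils *Nfkb1* (0.51) and *Creb1* (0.53) were higher in *Cd300a-/-* by over 0.5 and 0 were lower, against 16.4% and 19.9% of all genes. In SiglecF hi neutrophils 0 of the 14 were past 0.5, where 3.31% of all genes were higher and 3.46% lower. Higher in SiglecF hi neutrophils by over 0.5 were 6 in WT mice, *Batf* (0.57), *Nfkbiz* (0.65), *Creb1* (0.69), *Rel* (0.86), *Irf8* (0.95) and *Maf* (1.27). In *Cd300a-/-* mice 7 were, *Batf* (0.59), *Rel* (0.75), *Irf1* (0.75), *Irf5* (0.78), *Irf8* (0.82), *Nfkbiz* (0.89) and *Maf* (0.93). These shares of the 14 are set beside 51.9% and 56.6% of all genes. The numbers became 1 and 0 relative to the median (19.3% and 21.2% of all genes), with 4 lower in each (20.9% and 23.6%). The 1 in WT mice was *Maf*, a factor that drives *Il10*, at 0.75 relative to the median. *Maf* was at 50.8 TPM in WT SiglecF hi, 20.4 in WT SiglecF lo, 43.2 in *Cd300a-/-* SiglecF hi and 22.2 in *Cd300a-/-* SiglecF lo neutrophils. Not taken relative to the median, 1 of the 14 was lower in each genotype, *Cebpd* in WT (-0.67) and *Hif1a* in *Cd300a-/-* mice (-0.56). Of all genes 7.47% and 7.97% were lower.

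Proteins that bind cytokine mRNAs set how long these last. Of 10 listed genes 8 passed the limit, and *Zfp36*, which promotes decay, was the most abundant at 980.4, 662, 1120 and 671 TPM in WT SiglecF hi, WT SiglecF lo, *Cd300a-/-* SiglecF hi and *Cd300a-/-* SiglecF lo neutrophils. *Arid5a*, which stabilises *Il6* mRNA, was at 37.2, 34.8, 47.1 and 59.2 TPM in the same order. It was the 1 gene of these 8 past 0.5 between genotypes in SiglecF lo neutrophils, higher in *Cd300a-/-* by 0.75, and 1 of 8 is set beside 16.4% of all genes higher there and 19.9% lower. Under the limit, *Rc3h2*, which promotes decay, was higher there by 0.99 (0.79 to 1.19), with 201 counts (4.36 TPM) for WT and 491 (9.65 TPM) for *Cd300a-/-*. *Rc3h1*, also under the limit, was at 0.25 (0.08 to 0.41). Of the genes with a mean TPM over 1 and at most 10, 56.8% were past 0.5 in that comparison. In SiglecF hi neutrophils 0 of the 8 were past 0.5, where 3.31% of all genes were higher and 3.46% lower. Between subsets 4 of the 8 were higher in SiglecF hi neutrophils of WT mice, *Zfp36* (0.57), *Hnrnpd* (0.78), *Khsrp* (0.86) and *Elavl1* (1.03). In *Cd300a-/-* mice 6 were, *Zfp36l1* (0.55), *Zc3h12a* (0.60), *Zfp36* (0.74), *Khsrp* (0.95), *Elavl1* (1.25) and *Hnrnpd* (1.26). Of all genes 51.9% were higher in WT and 56.6% in *Cd300a-/-* mice. Relative to the median 1 of the 8 was higher (19.3% of all genes) and 0 were lower (20.9%) in WT mice, with *Elavl1* at 0.50. In *Cd300a-/-* mice 2 were higher on that scale, *Elavl1* (0.63) and *Hnrnpd* (0.65), and 1 was lower, *Arid5a* (-0.94), against 21.2% and 23.6% of all genes.

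Genes that cytokines induce were also counted. Of 12 such genes 9 passed the limit, with *Junb* the most abundant at 2757, 2259, 3038 and 1973 TPM in WT SiglecF hi, WT SiglecF lo, *Cd300a-/-* SiglecF hi and *Cd300a-/-* SiglecF lo neutrophils. In SiglecF lo neutrophils *Sbno2* (0.52) was higher in *Cd300a-/-*, and in SiglecF hi neutrophils *Il1rn* (0.54), which encodes the IL-1 receptor antagonist, and 0 of the 9 were lower in either. These counts of 1 are set beside 16.4% of all genes higher in the SiglecF lo and 3.31% in the SiglecF hi comparison, and those of 0 beside 19.9% and 3.46% lower. *Il1rn* stood at 833 TPM (WT) and 1209 TPM (*Cd300a-/-*) in SiglecF hi cells, and at 621 and 601 TPM in SiglecF lo cells. Its ratio of 0.54 was 0.50 and under the threshold relative to the median, and 0.52 and past it with TMM scaling. Higher in SiglecF hi neutrophils were 3 of the 9 in WT mice, *Pim1* (0.68), *Etv3* (0.70) and *Socs3* (0.73), and 5 in *Cd300a-/-* mice, *Junb* (0.62), *Etv3* (0.65), *Pim1* (0.87), *Socs3* (0.92) and *Il1rn* (1.01). Lower was 1 in each, *Fgl2* in WT (-0.64) and *Sbno2* in *Cd300a-/-* mice (-0.50), against 7.47% and 7.97% of all genes. The higher ones are set beside 51.9% and 56.6% of all genes, and relative to the median 0 were higher (19.3% and 21.2% of all genes) and 3 lower (20.9% and 23.6%) in both. *Socs3*, a feedback inhibitor of IL-6 signals, was level in SiglecF lo cells, at 309 TPM (*Cd300a-/-*) and 307 TPM (WT), or 0.01 on the log2 scale. Under the limit, *Socs1*, another such inhibitor, had 211 counts (14.1 TPM) for WT and 109 (6.61 TPM) for *Cd300a-/-* in SiglecF lo cells, a ratio of -0.99 (-1.29 to -0.69), and 225 (8.82 TPM) and 222 (9.72 TPM) in SiglecF hi cells. *Cish* had 264 counts in WT SiglecF hi, 135 in WT SiglecF lo, 315 in *Cd300a-/-* SiglecF hi and 26 in *Cd300a-/-* SiglecF lo neutrophils. Any link of the *Socs1* and *Cish* values to those of *Il6* was not tested. *Socs2*, also under the limit, was level between genotypes in SiglecF lo cells (-0.06, -0.35 to 0.22). Of the genes with a mean TPM over 1 and at most 10, 56.8% were past 0.5 in that comparison.

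The genes most like each cytokine over the 4 libraries were found by the smallest Euclidean distance of log2(TPM + 1), centred per gene, among the 6523 genes. With 4 libraries the likeness rests on few values, and it says nothing of shared control. For *Il6* they were *Srek1ip1* (0.12), *Pkig* (0.25) and *Trappc2* (0.26), and *Pkig* was at 43.2 TPM (WT) and 10.0 TPM (*Cd300a-/-*) in SiglecF lo cells. Near *Il23a* lay *Lyz1* (0.17) and *Arhgap10* (0.26), and nearest to *Il10* were *Tceal8* (0.18), *Lmf2* (0.18) and *Htra3* (0.22). *Lyz1* encodes a lysozyme. *Ebi3* was followed closely by *Usp38* (0.04), *Sbno1* (0.05) and *Rlf* (0.05), *Osm* by *Cep20* (0.05), *Ist1* (0.05) and *Pithd1* (0.06), and *Csf1* by *Memo1* (0.01), *Chtf8* (0.02) and *Pum2* (0.02). Among the cytokine genes over the limit the nearest pair was *Ebi3* and *Osm* (0.45). Each of these 6 had nearer genes outside the group. This says nothing of the group, because the 6523 genes offer far more candidates than the 6.

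The promoters of *Il6* and *Il12a* are shown because these genes had the lowest and the highest genotype ratios of the 9 in SiglecF lo neutrophils. RefSeq promoters on GRCm38.p6 matched 5 of the 9 genes, *Il6*, *Il12a* (with 2 starts), *Ebi3*, *Lif* and *Csf1*, and not *Il23a*, *Il10*, *Osm* and *Csf3*. These coordinates are of another build than those of the files. The 250 bases before each start were searched on both strands for GGGANNNTCC (kappa B), TGANTCA (AP-1) and TTGNNCAA (C/EBP), motifs that were chosen after the values were seen. Of 32536 promoters of that length, 3.87% hold the first, 6.73% the second and 5.61% the third. The stretch before the *Il6* start is at chr5:30012864-30013113 (plus strand), and that before the second *Il12a* start is at chr3:68691174-68691423 (plus strand). Capitals mark the matches.
Il6: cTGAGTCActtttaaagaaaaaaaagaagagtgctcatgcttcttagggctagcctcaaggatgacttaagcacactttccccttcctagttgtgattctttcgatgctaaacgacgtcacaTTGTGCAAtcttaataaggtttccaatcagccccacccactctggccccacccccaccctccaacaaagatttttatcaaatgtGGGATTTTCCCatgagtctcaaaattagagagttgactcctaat
Il12a: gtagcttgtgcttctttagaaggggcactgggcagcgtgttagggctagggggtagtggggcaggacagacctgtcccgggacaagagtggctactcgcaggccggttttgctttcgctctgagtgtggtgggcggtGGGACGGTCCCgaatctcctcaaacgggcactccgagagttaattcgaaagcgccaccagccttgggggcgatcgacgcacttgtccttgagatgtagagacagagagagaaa
In *Il6* the capitals are TGAGTCA, TTGTGCAA and a stretch read as GGGATTTTCC on the printed strand and as the same motif on the other strand 1 base further on, which starts 44 bases before the gene's start. In *Il12a* they are 1 stretch that also matches on both strands, GGGACGGTCC on the printed one, starting 113 bases before the start. The first *Il12a* start and *Ebi3* had no match in this window, *Csf1* had a kappa B match (GGGAAAGTCC) and *Lif* an AP-1 match (TGACTCA). *Il6*, *Il12a* and *Csf1* thus share the kappa B letters while their genotype ratios in SiglecF lo neutrophils were -1.86, 2.85 and 0.15. A match describes the letters in the window and is not evidence of binding.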

How the data were processed

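Poly(A) RNA of sorted cardiac neutrophils was sequenced in paired ends, 1 library for each of 4 groups. The kit, NEBNext Ultra II, does not mark strand, and no cytokine gene's span overlaps another gene of the files. The authors deposited for each gene a count, whole and not normalized, and it is not stated whether reads or read pairs were counted. The authors deposited TPM from CLC Genomics Workbench. RPKM and a scaled CPM (a signal) were deposited as well and not used for results. Positions are GRCm39 per the submitters' processing notes. Alignment settings and the annotation are not given in the sources used here.

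Computed here were log2((TPM + 1) ratios), their 95% Poisson counting intervals, exact conditional binomial intervals for low genes, and bounds against 3 counts. No test compared conditions. Alternatives were a pseudocount of 0.1, mean TPM over 1, no filter, a log2 threshold of 1, TMM-scaled counts and centring on the median. A filter on the mean TPM of the 2 libraries compared was an addition made with the values in view. The log2 ratios, their counting intervals and the exact intervals were tested on simulated counts of equal depth with Poisson error alone. The TMM-scaled and centred ratios, the bounds and the differences between subsets were not tested in this way. The cytokine genes and all lists were chosen with earlier results of these data known. Genes named are the 9 cytokines and, of the lists of partner chains, other cytokines, receptors, transcription factors, mRNA decay factors, response genes and dissociation genes, those over the limit and past 0.5, the most abundant, and partner chains or receptors, then the 3 genes most like each cytokine (1 of which is not reported here), and *Cd300a*, *Siglecf* and *Ly6g*. *Rc3h1*, *Rc3h2*, *Socs1*, *Socs2*, *Cish*, *Il5*, *Clcf1* and the cell type markers given by name were chosen after their values were seen. Python 3.11.15, numpy 2.4.6, pandas 2.3.3, scipy 1.17.1, matplotlib 3.10.9, R 4.3.3 and edgeR 4.0.16 (TMM) were used.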

Additional observations from a re-analysis of the deposited data

Results flagged for a closer look

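For 3 of the 9 genes the same contrast pointed opposite ways in the 2 genotypes or the 2 subsets, with both 95% counting intervals clear of 0. *Ebi3* and *Csf3* also had ratios of opposite sign, but with at least 1 interval that held 0. These differences were not tested, since each group is 1 library. The log2((TPM + 1) ratio) of SiglecF hi to SiglecF lo neutrophils was 1.10 in *Cd300a-/-* and -0.31 in WT mice for *Il6*, a difference of 1.41. The median of the 6 endothelial genes over the limit was 0.81 and -0.61 in the same contrasts, and its part was not tested. For *Il12a* it was -2.36 in *Cd300a-/-* and 0.93 in WT mice, a difference of -3.29 that rests on 4 counts in WT SiglecF lo neutrophils. Relative to the median of all genes *Il12a* was at -2.97 in *Cd300a-/-* and at 0.41, under the threshold, in WT mice. The intervals were not taken on that scale. For *Il10* the ratio of *Cd300a-/-* to WT was 1.04 in the SiglecF lo and -0.41 in the SiglecF hi subset, a difference of 1.44, with 27 counts in the WT SiglecF lo library.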

How the results depend on the processing

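Of the 12 genotype ratios of the 6 genes over the limit, 12 had the same direction and the same side of 0.5 with a pseudocount of 0.1, TMM scaling or centring on the median. Of the 12 subset ratios, 12 did so with a pseudocount of 0.1. With TMM scaling 11 had the same direction and 5 the same side, and with centring 11 and 4. The exception in direction was *Ebi3* in WT mice, 0.10 as reported and -0.43 and -0.42 under these scalings. Between genotypes in the SiglecF hi subset, the genes past 0.5 went from 0 to 1 with a mean TPM over 1 and to 1 with no filter, because *Lif* entered. Between subsets in *Cd300a-/-* mice it went from 4 to 2 with a log2 threshold of 1. With the added filter on the 2 libraries compared, *Il10* left the SiglecF lo comparison, and 2 genes were past 0.5 there in place of 3. No library could be left out, because each group has 1. No difference therefore has an error between mice, and depth limits *Il12a*, *Lif*, *Csf3* and, in SiglecF lo neutrophils, *Il10*.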
